A study of Mus musculus with 4 samples.

Results

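Collagens, laminins and integrins were examined in the embryonic cortex of *Qk* conditional knockout mice. The members were chosen by gene symbol, with earlier results of these data known, and comprised 80 of the 23038 genes in the expression tables: 43 collagen chains, 11 laminin chains and 26 integrin subunits. The 124 splicing events annotated in these genes, of 38240 in all, were taken with them. RNA came from the cortex of E14.5 mouse embryos, from 2 *Qk* fl/fl embryos (control, labelled WT) and 2 *Nestin*-Cre; *Qk* fl/fl littermates (*Qk cKO*), so that floxed *Qk* alleles were shared by both groups. *Qk* encodes Qki, an RNA-binding protein of neural stem cells. Cre was driven by the *Nestin* promoter, which is active in neural progenitors. The dissected tissue can also hold meninges, blood vessels and microglia, and deletion was not measured by cell type. In such bulk samples, fewer cells of a type and less RNA per cell cannot be told apart.

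Collagens are secreted chains that wind into triple helices through a repeat that places a glycine at regular steps. Collagen IV and the laminins, which assemble from an alpha, a beta and a gamma chain, form the basement membranes under the pia and around vessels. Integrins are receptors of an alpha and a beta subunit that bind these proteins at the cell surface. In the developing cortex, the end-feet of radial glia attach to the pial basement membrane through laminins and integrins.

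Quantas assigned between 37942046 and 42994832 tags to genes per sample. The deletion was seen in the junction of exon 2 and exon 3 of *Qk*, which held 635 and 565 tags in the controls but only 63 and 68 in the knockouts, although the whole gene had more tags in the knockouts. *Xist* was high in replicate 1 of both genotypes and *Ddx3y* in replicate 2 of both, so the sexes were balanced between the groups. Of all 18834 genes tested, 110 (0.584%) were called changed, which here means a p below 0.01 and a false discovery rate (FDR) below 0.1 by the quasi-likelihood test of edgeR. *Qk cKO* was higher in 39 of them (0.207%) and lower in 71 (0.377%). P-values rest on 2 embryos per group, and the smallest p that an exact permutation test of 2 against 2 allows is 0.333.

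Only *Col2a1* and *Itgb8* among the 80 members were called in that test, and both fell in *Qk cKO*. No member was called higher. The paper's own list of changed transcripts holds these 2 and also *Col17a1*, which was higher here without being called (edgeR FDR = 0.171). *Col2a1* encodes the chain of collagen II, best known from cartilage, and *Itgb8* encodes an integrin beta subunit that pairs with alpha V and takes part in the activation of latent TGF-beta. *Col2a1* was at an RPKM (tags per length of exon and per total tags) of 29.4 and 30.5 in control and 19.97 and 18.6 in *Qk cKO*. Both knockout embryos thus lay below both controls. The level was 65.0% of control, a log2 fold change of -0.62 ± 0.06 (SE, n = 2 per group; edgeR FDR = 1.39e-05). *Itgb8* was at an RPKM of 4.05 and 4.43 in control and 3.04 and 2.86 in *Qk cKO*. The groups again did not overlap, and the level was 70.2% of control (log2 fold change -0.51 ± 0.11, edgeR FDR = 0.0672). The call of *Itgb8* was the less firm: it was lost with edgeR's filter on low counts (FDR = 0.256) and without control 1, control 2 or *Qk cKO* 2 (FDR = 0.40, 0.932 and 0.327). *Col2a1* lost its call only without control 2 (FDR = 0.346), where no gene of the whole table was called.

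**Figure D1:**
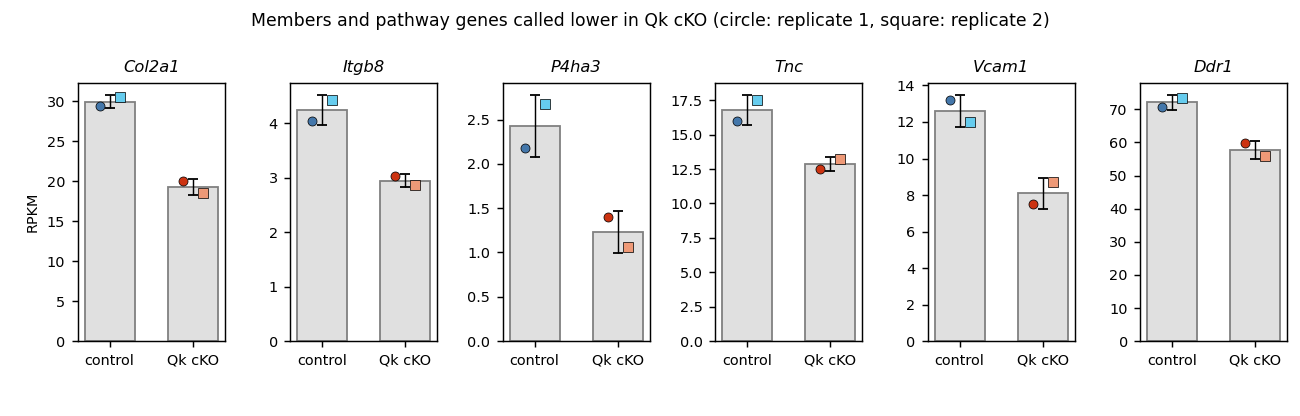
RPKM of 6 genes called lower in *Qk cKO*, the members *Col2a1* and *Itgb8* and the related genes *P4ha3*, *Tnc*, *Vcam1* and *Ddr1*. Bars are means of 2 embryos, whiskers the SD, and points the embryos, and in each panel both *Qk cKO* points lie below both control points. The genes are shown because they were called lower in these samples, so the lack of overlap is not a separate result. By RPKM, 22.9% of all genes with a mean of at least 1 had it.

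Of 12 radial glia markers, 4 were called lower in the same comparison, where 0.377% of all genes tested were called lower. They were *Fabp7*, a fatty acid-binding protein, *Slc1a3*, a glutamate transporter, *Ednrb*, an endothelin receptor, and *Aldh1l1*, a folate enzyme. *Fabp7*, *Ednrb* and *Aldh1l1* are also in the paper's own list of changed transcripts. The markers were chosen with earlier results of these data known, so the count of 4 is not an independent result. The summed RPKM of the 12 markers was 1710 and 1589 in control and 1392 and 1332 in *Qk cKO*, and most of that difference was *Fabp7*. The other 11 markers summed to 721 and 688 in control and 690 and 665 in *Qk cKO*, where the groups overlapped narrowly. *Nes*, *Pax6* and *Vim* had log2 fold changes of 0.04, 0.08 and -0.01. The median log2 fold change of the 12 markers was -0.15, with 3 of 12 positive. With tag totals corrected for composition, 7 of 12 had both *Qk cKO* samples below both controls and 1 had both above. The shares over all genes with a mean RPKM of at least 1 were 19.5% and 21.2%. The part of radial glia in the *Col2a1* and *Itgb8* results was not tested. Of the cartilage matrix markers, *Acan*, *Matn1*, *Matn3* and *Comp* lay between 0 and 0.116 RPKM in every sample, *Hapln1* between 0.115 and 0.169 and *Lect1* between 0.434 and 0.874. Of the 9 cartilage markers in the files, 0 were called, with a summed RPKM between 37.1 and 39.1 that came mostly from *Sox5*, *Sox6* and *Sox9*, which neural cells also express. The ventral forebrain and hypothalamus list had 5 of 11 genes called lower (*Nkx2-2*, *Six6*, *Pomc*, *Nr5a1* and *Sox14*), beside 0.377% of all genes tested. These 5 are also in the paper's own list of changed transcripts. The markers were chosen with earlier results of these data known, so the count of 5 is not an independent result. All 5 were highest in control 2, with *Pomc* at 1.20 and 3.32 RPKM in control and 0.439 and 0.435 in *Qk cKO*. The part of this tissue in the member values was not tested. Of 10 microglia markers, 1 was called lower, *Ctss*, a protease. The median log2 fold change of the 10 was -0.02, with 5 of 10 positive. Of 9 surface epithelium markers, 1 was called higher, *Krt19*, an epithelial keratin that rose from 0 in both controls to 0.305 and 0.691 RPKM. *Ctss* and *Krt19* are also in the paper's own list of changed transcripts.

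The transcript form of *Col2a1* was read from its second exon. This exon of 204 nt (GRCm38 chr15:98000403-98000606, minus strand, coding) carries a cysteine-rich domain. The form that holds it is the embryonic form made outside mature cartilage, and mature chondrocytes skip it. Its sequence is shown with the 10 in-frame cysteine codons (TGC or TGT) in capitals.
Col2a1 exon 2: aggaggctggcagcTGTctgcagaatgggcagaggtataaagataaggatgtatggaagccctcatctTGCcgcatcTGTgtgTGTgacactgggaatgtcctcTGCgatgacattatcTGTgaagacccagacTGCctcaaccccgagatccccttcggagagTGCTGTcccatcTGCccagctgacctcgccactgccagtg
The junctions into and out of the exon held 137 tags in the controls and 85.2 in the knockouts, against 7 and 2 tags on the junction that skips it. Inclusion, the share of isoforms with the exon computed from junction tags, was 0.933 and 0.869 in control and 0.925 and 1.0 in *Qk cKO*. The long form therefore predominated in all 4 embryos. With 9 skipping tags in all, the event was under the minimum of 20 and was not tested. An alternative 5' splice site that makes this exon 207 nt long held 0 tags in either control and 4.75 and 1 in *Qk cKO*. The site of the 204-nt form held 96 tags in the controls and 72.2 in the knockouts. With 5.75 tags at the alternative site in all, that event was not tested either.

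The other fibrillar collagens, which form the fibres of connective tissue, were not called. Of 11 chains, 9 had a mean RPKM of at least 1, and *Col2a1* was the only chain called. *Col3a1*, the chain of collagen III of vessels and meninges, was the most abundant, at 55.4 and 49.4 RPKM in control and 54.9 and 65.3 in *Qk cKO*. The high value was in *Qk cKO* 2, and the log2 fold change was 0.21 ± 0.09 (FDR = 0.447). *Col11a1*, which copolymerizes with collagen II in cartilage fibrils, was at 13.4 and 13.5 RPKM in control and 13.3 and 13.01 in *Qk cKO*. The log2 fold change was -0.02 ± 0.06. *Col1a1* and *Col1a2*, the collagen I chains, had log2 fold changes of -0.12 ± 0.10 and 0.01 ± 0.09. *Col5a2* had 0.10 ± 0.05.

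Among the fibril-associated collagens, which decorate the surface of fibrils, 0 of 9 chains were called, and collagen IX chains went in different directions. *Col9a2* was at 6.58 and 8.96 RPKM in control and 5.05 and 6.37 in *Qk cKO*, a log2 fold change of -0.43 ± 0.14 (FDR = 0.286). The groups did not overlap, and *Qk cKO* was the lower within replicate 1 and within replicate 2, the split that carried the sexes. *Col9a3* was at 13.3 and 11.9 RPKM in control and 13.3 and 16.4 in *Qk cKO* (log2 fold change 0.25 ± 0.10, FDR = 0.455), with *Qk cKO* 2 the high sample. The third chain, *Col9a1*, was low, at 0.742 and 0.656 RPKM in control and 0.493 and 0.606 in *Qk cKO* (log2 fold change -0.34 ± 0.23, FDR = 0.767). *Col22a1* was at 9.21 and 9.78 RPKM in control and 8.0 and 7.38 in *Qk cKO* (log2 fold change -0.29 ± 0.09, FDR = 0.285). *Col9a2* and *Col22a1* had a p below 0.01 before adjustment in edgeR's fit, as did *Col2a1* and *Itgb8* among the falling members and *Col8a1*, *Col17a1*, *Itgal* and *Lamb1* among the rising ones. That made 8 of 80 members, where 2.98% of all genes tested passed the same limit.

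**Figure D2:**
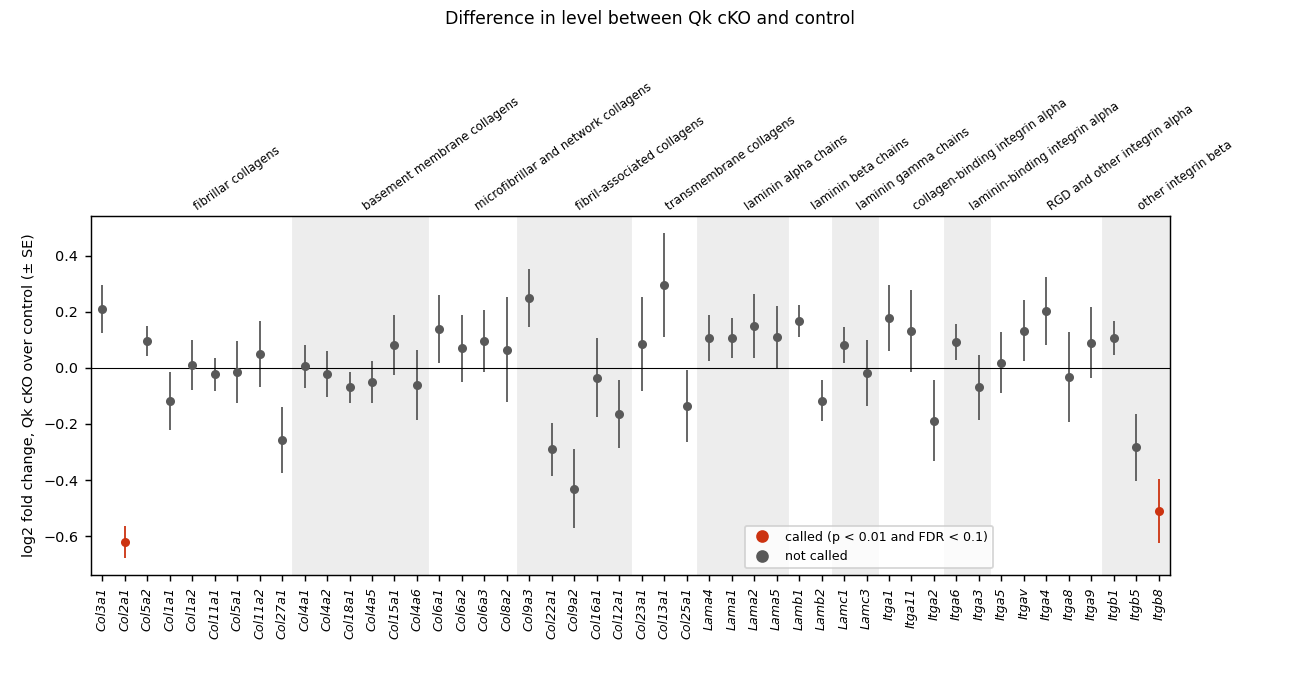
Log2 fold change of *Qk cKO* over control for the 48 members with a mean RPKM of at least 1, ordered by role and then by level, with whiskers for the SE. *Col2a1* at -0.62 and *Itgb8* at -0.51 are the called members, and 38 of the 48 lie within 0.2 of no change.

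Basement membrane collagens included the most abundant members, and 0 of 8 were called. *Col4a1* and *Col4a2*, which together form the common collagen IV trimer, were at the top. *Col4a1* was at 104 and 103 RPKM in control and 98.3 and 108 in *Qk cKO*. *Col4a2* was at 62.8 and 63.0 RPKM in control and 56.2 and 66.7 in *Qk cKO*. The control values lay inside the range of the *Qk cKO* values for both chains, with log2 fold changes of 0.01 ± 0.08 and -0.02 ± 0.08. The ratio of *Col4a1* to *Col4a2* was between 1.61 and 1.75 in the 4 samples, so the chains kept nearly the same proportion across embryos. *Col4a1* made up 56.4% to 58.3% of the summed RPKM of collagen IV chains. *Col4a5* and *Col4a6*, both on the X chromosome, made up 6.39% to 7.15% and 1.5% to 1.91%. *Col4a5* was at 11.6 and 13.1 RPKM in control and 11.1 and 12.5 in *Qk cKO*, higher in replicate 2 than in replicate 1 of either genotype, which was also the split of *Xist* and *Ddx3y*. *Col4a3* and *Col4a4*, chains of the kidney filter, were at most 0.297 RPKM. *Col18a1*, the source of endostatin, had a log2 fold change of -0.07 ± 0.06.

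*Col4a1* and *Col4a2* lie head to head on chromosome 8, and the start sites of their RefSeq promoter windows are 21 bases apart. In the RefSeq gene extents, *Col4a1* reaches to 11312889 and *Col4a2* begins at 11312805, so the genes overlap. The ratio of *Col6a1* to *Col6a2*, on the same strand, was between 1.98 and 2.16. That of *Col1a1* to *Col1a2*, on chromosomes 11 and 6, was between 1.02 and 1.18. Of other head-to-head pairs, *Col4a6* to *Col4a5* was between 0.23 and 0.27 and *Col4a4* to *Col4a3*, at low levels, between 1.30 and 5.18. The RefSeq promoter window of *Col4a2* (GRCm38.p6 chr8:11312555-11312854, plus strand) is printed, and its part in the ratio of *Col4a1* to *Col4a2* was not tested. Its bases 223 to 300 are shared with the window of *Col4a1*, an overlap of 78 nt. Matches to GGGCGG and CCAAT on either strand are in capitals.
Col4a2 promoter: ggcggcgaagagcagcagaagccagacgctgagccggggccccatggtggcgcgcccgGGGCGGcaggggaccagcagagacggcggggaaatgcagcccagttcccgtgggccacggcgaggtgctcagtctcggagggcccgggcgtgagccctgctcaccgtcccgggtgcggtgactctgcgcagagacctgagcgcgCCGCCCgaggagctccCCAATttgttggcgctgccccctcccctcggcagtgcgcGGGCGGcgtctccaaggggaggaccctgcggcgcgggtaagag
GGGCGG matched 3 times and CCAAT once, and TATAAA was searched and not matched. Of these matches, 1 to GGGCGG and 0 to CCAAT lay in the shared 78 nt. Of 32851 RefSeq promoter windows of this length, 35.7% hold GGGCGG, 37.4% CCAAT and 13.6% TATAAA.

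The microfibrillar and network collagens and the transmembrane collagens were called in 0 of 11 and 0 of 4 cases. *Col6a1* and *Col6a2*, chains of the collagen VI microfibrils, were at 9.99 and 10.01 RPKM and at 5.05 and 4.78 RPKM in control. In *Qk cKO* they were at 9.14 and 12.7 RPKM and at 4.36 and 5.88 RPKM. For both chains *Qk cKO* 1 was the lowest sample and *Qk cKO* 2 the highest. *Col13a1* and *Col23a1*, transmembrane collagens of cell adhesion, showed the same order more widely. *Col13a1* was at 2.93 and 2.57 RPKM in control and 2.36 and 4.36 in *Qk cKO*, and *Col23a1* at 5.23 and 4.68 in control and 3.76 and 6.68 in *Qk cKO*. Their log2 fold changes of 0.30 ± 0.19 and 0.08 ± 0.17 were thus differences between groups whose *Qk cKO* samples lay on either side of control.

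Laminin chains had 0 of 11 members called. *Lamb1* came nearest, at 14.4 and 14.3 RPKM in control and 14.98 and 16.97 in *Qk cKO* (log2 fold change 0.17 ± 0.06, FDR = 0.326). Its alternative *Lamb2*, the beta chain of vessels and synapses, was at 12.4 and 12.7 RPKM in control and 11.1 and 11.8 in *Qk cKO* (-0.12 ± 0.07, FDR = 0.717). The ratio of *Lamb1* to *Lamb2* was 1.16 and 1.13 in control and 1.34 and 1.44 in *Qk cKO*, without overlap between the groups, and the ratio itself was not tested. Among alpha chains, *Lama4*, a chain of vessels, and *Lama1*, a chain of the pial basement membrane, led with 35.4% to 38.4% and 30.2% to 34.3% of the summed RPKM. Their log2 fold changes were 0.11 ± 0.08 and 0.11 ± 0.07. *Lamc1*, the gamma chain of most laminins, made up 81.5% to 82.3% of gamma chain RPKM and *Lamc3* 15.4% to 16.7%. Their log2 fold changes were 0.08 ± 0.06 and -0.02 ± 0.12.

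Integrin beta subunits were led by *Itgb1*, the common partner of collagen- and laminin-binding alpha subunits. *Itgb1* was at 47.5 and 46.8 RPKM in control and 47.5 and 53.1 in *Qk cKO* (log2 fold change 0.11 ± 0.06, FDR = 0.665). *Itgb5*, a partner of alpha V, was at 6.69 and 8.29 RPKM in control and 5.89 and 6.30 in *Qk cKO* (-0.28 ± 0.12, FDR = 0.473). *Itgb8* made up 6.78% and 7.35% of beta subunit RPKM in control and 5.27% and 4.53% in *Qk cKO*. *Itgav*, the alpha V subunit that pairs with the *Itgb8* product, was not called and was at 2.72 and 2.84 RPKM in control and 2.93 and 3.11 in *Qk cKO* (0.13 ± 0.11, FDR = 0.818). Both knockout values of *Itgav* were above both controls.

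None of the integrin alpha subunits was called. Among the laminin-binding subunits, *Itga6*, a laminin receptor subunit of radial glia, was at 12.2 and 12.7 RPKM in control and 12.7 and 13.6 in *Qk cKO* (log2 fold change 0.09 ± 0.06), and *Itga3* had -0.07 ± 0.12. Among the collagen-binding subunits, *Itga1* and *Itga11* had 0.18 ± 0.12 and 0.13 ± 0.15. *Itga5*, the fibronectin receptor subunit, was at 6.71 and 7.33 RPKM in control and 6.98 and 7.10 in *Qk cKO* (0.02 ± 0.11). *Itga4*, which binds Vcam1 and fibronectin, was at 1.71 and 1.68 RPKM in control and 1.73 and 2.14 in *Qk cKO* (0.20 ± 0.12, FDR = 0.699). All 7 leukocyte subunits were below an RPKM of 1. *Itgam* and *Itgb2*, which together form a receptor of microglia, had means of 0.509 and 0.313 RPKM and log2 fold changes of -0.00068 ± 0.23 and -0.18 ± 0.40.

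**Figure D3:**
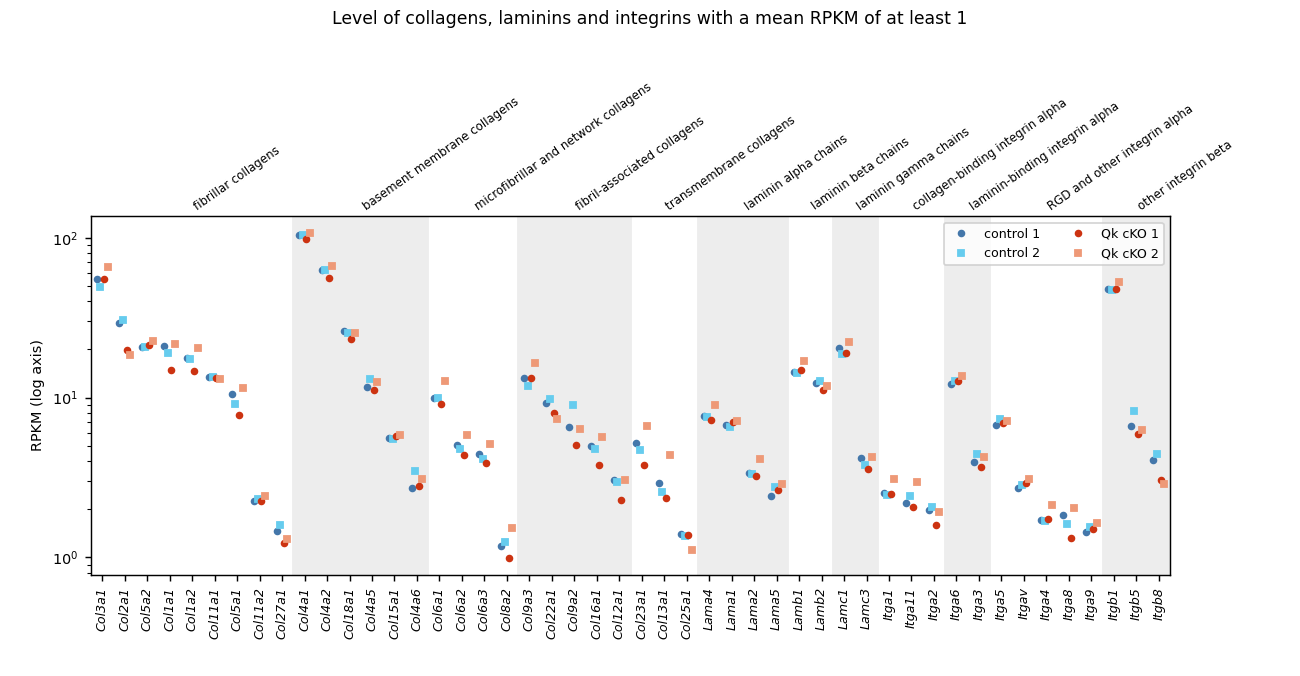
RPKM on a log axis of the 48 members with a mean RPKM of at least 1 in each of the 4 embryos, grouped by role. *Col4a1* lies highest near 100, and the squares of *Qk cKO* 2 lie above the circles of *Qk cKO* 1 for 43 of the 48 members on this scale.

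Across the members, most differences between the *Qk cKO* embryos had the same direction. The median log2 fold change of the 48 members with a mean RPKM of at least 1 was 0.03, beside 0.00 over the 12743 genes at that level. On the TMM scale, which corrects tag totals for composition, 8 of these 48 had both *Qk cKO* samples below both controls and 11 had both above, where the shares over all genes at that level were 19.5% and 21.2%. By RPKM, 9 and 9 did, beside 22.9% and 18% of all genes. Between the *Qk cKO* embryos, in contrast, 42 of 48 were higher on the TMM scale in replicate 2, with a median log2 ratio of 0.21, beside 48.4% and -0.01 over all genes. Between the controls, 20 of 48 were higher in replicate 2, with a median log2 ratio of -0.01. The excess in *Qk cKO* 2 was largest for *Col13a1* (0.87), *Col23a1* (0.81), *Col8a2* (0.61), *Itga8* (0.60) and *Col16a1* (0.57), which were named after their values were seen. Of the 6 members lower in *Qk cKO* 2 than in *Qk cKO* 1, *Col2a1* (-0.12) and *Itgb8* (-0.11) were 2.

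Markers of meningeal fibroblasts were high in the same embryo. The summed RPKM of 10 such markers was 76.9 and 68.8 in control, 72.4 in *Qk cKO* 1 and 98.03 in *Qk cKO* 2. *Dcn*, the most abundant, was at 25.2, 23.4, 24.3 and 37.0 in the same order. The genotype comparison had 0 of these 10 markers called, and 0 of 10 endothelial and 0 of 8 pericyte markers. Endothelial markers summed to 127.8 and 124.0 RPKM in control, 120.0 in *Qk cKO* 1 and 135.8 in *Qk cKO* 2. Of markers with a mean RPKM of at least 1, the higher sample of the *Qk cKO* pair was *Qk cKO* 2 for 7 of 8 meningeal (median log2 ratio 0.50), 3 of 3 surface epithelium (0.71), 8 of 10 endothelial (0.16), 7 of 9 neuron (0.17), 5 of 7 pericyte (0.02) and 0 of 5 erythroid markers (-0.49). The same sample was the higher for 5 of 9 microglia (0.03), 2 of 3 cartilage (0.02), 2 of 5 ventral forebrain and hypothalamus (-0.02) and 3 of 12 radial glia markers (-0.05). The share over all genes at that level was 48.4%. Some marker lists thus moved with the members between these embryos, and others did not. The part of the cell types they mark in the member values was not tested. Without *Qk cKO* 1, 8 members were called, *Col2a1* and *Itgb8* lower and *Col8a1*, *Col13a1*, *Col3a1*, *Col23a1*, *Col9a3* and *Lamb1* higher, where 2.25% of all genes were called. Without *Qk cKO* 2, 3 were called and all were lower: *Col2a1*, *Col5a3* and *Col1a1*, where 0.345% of all genes were called. The rise of members in the former and the fall of *Col1a1* in the latter thus each rested on a single *Qk cKO* embryo, and *Col2a1* was called in both.

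**Figure D4:**
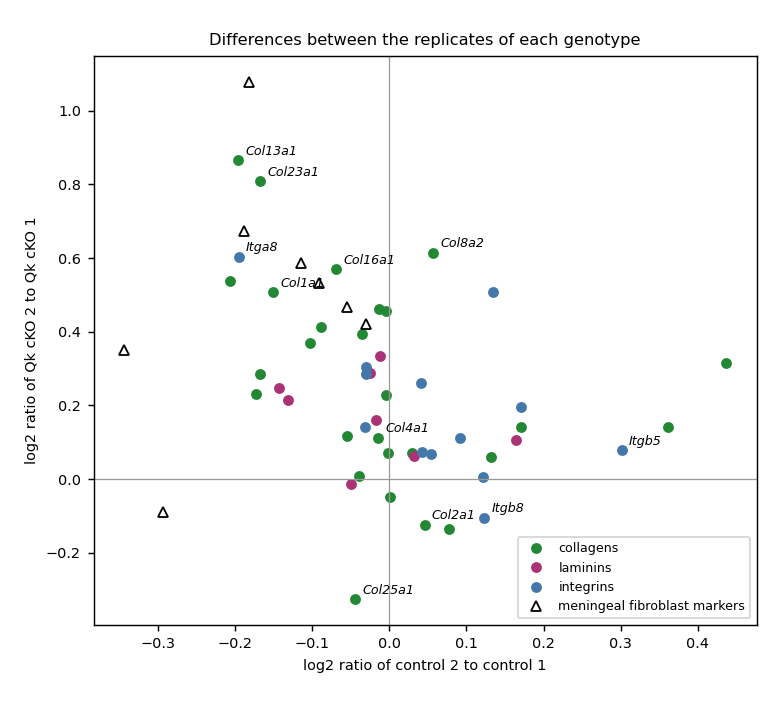
Log2 ratio of *Qk cKO* 2 to *Qk cKO* 1 (vertical) against that of control 2 to control 1 (horizontal) for the same 48 members and for meningeal fibroblast markers with a mean RPKM of at least 1. Most members and markers lie above 0 on the vertical axis, and *Col2a1* and *Itgb8* lie just below it.

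Genes that act with the members were examined in 4 lists of 94 genes in the files. Of these, 4 were called lower and 0 higher, where 0.377% of all genes tested were called lower. In the list of collagen biosynthesis and cross-linking, 1 of 27 genes was called, *P4ha3*, a catalytic subunit of the prolyl hydroxylase that stabilizes the collagen helix. *P4ha3* was at 2.18 and 2.67 RPKM in control and 1.39 and 1.06 in *Qk cKO* (log2 fold change -0.96 ± 0.18, edgeR FDR = 0.0227). The abundant enzymes *P4hb* and *Ppib* had log2 fold changes of 0.05 ± 0.07 and -0.03 ± 0.06.

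In the list of basement membrane and integrin ligand proteins, 2 of 22 genes were called. *Tnc*, tenascin C of the progenitor zone, was at 16.0 and 17.5 RPKM in control and 12.5 and 13.2 in *Qk cKO* (-0.37 ± 0.06, FDR = 0.00656). *Vcam1*, the cell surface ligand of the *Itga4* product, was at 13.2 and 11.98 RPKM in control and 7.51 and 8.71 in *Qk cKO* (-0.62 ± 0.11, FDR = 0.0153). *Agrn* and *Bsg*, the most abundant of the list, had -0.18 ± 0.08 and -0.05 ± 0.05. Of 14 other matrix receptors, *Ddr1*, a collagen-binding receptor kinase, was called, at 70.6 and 73.6 RPKM in control and 59.7 and 55.8 in *Qk cKO* (-0.30 ± 0.07, FDR = 0.0631). *Gpr56*, the collagen III receptor of radial glia, was at 85.7 and 91.99 RPKM in control and 86.9 and 78.8 in *Qk cKO* (-0.09 ± 0.08, FDR = 0.829), and *Rpsa* had -0.05 ± 0.09. The adhesion and signalling proteins inside the cell had 0 of 31 called, with -0.02 ± 0.06 for *Fyn* and -0.03 ± 0.05 for *Ilk*. All 4 calls were absent with edgeR's filter on low counts and without control 1 or control 2.

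Splicing of the members was then compared. Coverage was taken as the smallest junction tag sum of either isoform or genotype, and 9 of 124 events (7.26%), in 8 genes, reached 20, beside 30.1% of all events. Of the 115 others, 28 had at least 100 junction tags, and in 19 of these the rarer isoform had under 1% of them. None of the 9 events was called by Fisher's exact test on summed isoform tags, where 7.5% of the 11500 events tested were called, and none by an edgeR test of isoform by genotype that takes the spread between embryos into account, where 0.557% were called. Of the 9, 3 had a ΔI, the control inclusion less the knockout inclusion, of at least 0.1 in size, beside 11.4% of all events tested. These 3 were 2 distinct events, in *Col4a5* and *Itgav*, since the *Itgav* event was entered in duplicate, and 0 reached 0.1 when inclusion was averaged over the embryos of a group. An unadjusted p below 0.05 was reached by 1 in Fisher's exact test, beside 16.8% of all, and by 0 in the edgeR test.

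That event was a pair of 9-nt exons of *Col4a5* (GRCm38 chrX:141658532-141658540 and chrX:141664676-141664684, plus strand, coding), which are included or skipped together. The ends of the neighbouring exons are shown spliced to them, with the alternative bases in capitals, since inclusion lengthens the helical repeat without a change of frame.
Col4a5 with both exons: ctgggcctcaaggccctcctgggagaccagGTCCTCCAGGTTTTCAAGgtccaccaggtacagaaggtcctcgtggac
Col4a5 without them: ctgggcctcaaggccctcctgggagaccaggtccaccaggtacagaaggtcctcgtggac
Inclusion was 0.278 and 0.204 in control and 0.345 and 0.336 in *Qk cKO*. Both knockout values lay above both controls, but the 95% Wilson intervals, which cover counting error only, overlapped: 0.165 to 0.429 in control 1 and 0.184 to 0.531 in *Qk cKO* 2. The ΔI was -0.10 (Fisher's exact test, FDR = 0.265).

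**Figure D5:**
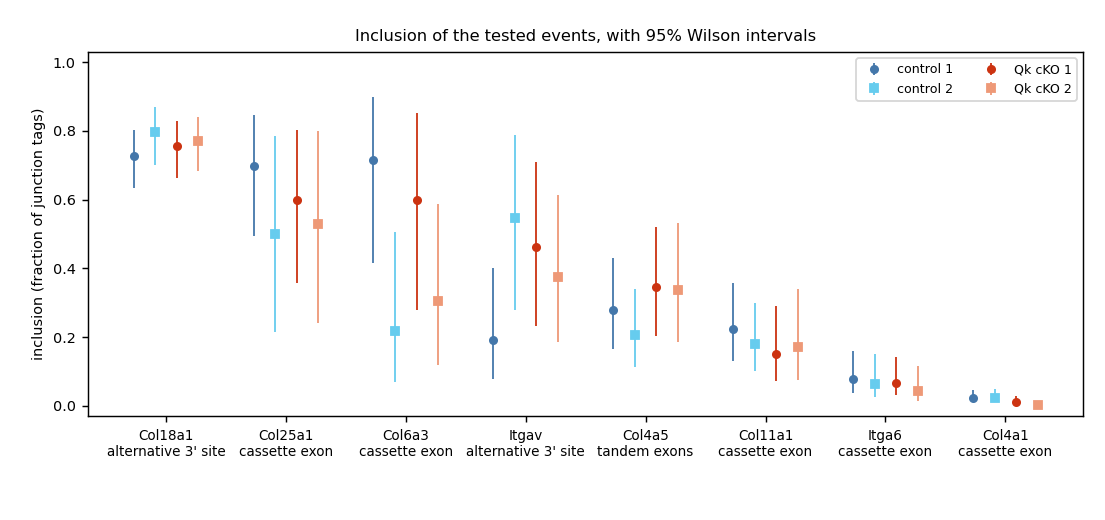
Inclusion, the fraction from junction tags, of 8 of the tested events in each embryo, with 95% Wilson intervals. The duplicate entry of *Itgav* is left out, and the intervals of control and *Qk cKO* overlap in every event.

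*Col25a1*, a transmembrane collagen of neurons, had a 45-nt coding exon (GRCm38 chr3:130535431-130535475, plus strand) close to equal use. Its in-frame glycine codons (GGN), in capitals, show 5 repeats of the helix.
Col25a1 45-nt exon: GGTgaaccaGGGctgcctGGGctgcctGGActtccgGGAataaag
Inclusion was 0.698 and 0.5 in control and 0.6 and 0.529 in *Qk cKO* (FDR = 0.761), and the groups overlapped. *Itga6* had an exon of 130 nt that encodes an alternative cytoplasmic tail, with its own stop codon in capitals (GRCm38 chr2:71853534-71853641, plus strand, for the coding part shown).
Itga6 tail exon: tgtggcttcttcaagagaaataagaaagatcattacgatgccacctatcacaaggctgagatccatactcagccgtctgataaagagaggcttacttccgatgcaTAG
Its inclusion was 0.078 and 0.063 in control and 0.067 and 0.042 in *Qk cKO* (FDR = 0.968). The form without this exon was thus the main form in all 4 embryos.

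The remaining tested events were not called either. A 16-nt exon of *Col11a1* had an inclusion of 0.225 and 0.179 in control and 0.150 and 0.171 in *Qk cKO* (ΔI = 0.04, FDR = 0.870). The alternative 3' splice site of *Col18a1* had 0.726 and 0.798 in control and 0.756 and 0.771 in *Qk cKO* (ΔI = -0.01, FDR = 1.0). *Itgav* was entered as 2 events with the same junction tags, with an inclusion of 0.190 and 0.545 in control and 0.462 and 0.375 in *Qk cKO* (ΔI = -0.10, FDR = 0.697). The controls of *Itgav* lay on either side of both knockout values, and without control 1 the ΔI was 0.13, under the minimum coverage. A 17-nt exon of *Col4a1* was in 0.022 of isoforms in either control and in 0.011 and 0.002 in *Qk cKO*, with 24.96 and 9.55 inclusion tags against 547 and 741 skipping tags (FDR = 0.463). It was called on junction tags alone (FDR = 0.0149), as the only member event called under any alternative, and was named for that. A 600-nt exon of *Col6a3* ranged from 0.217 to 0.714 within control. Outside the tested events, the 81-nt exon of *Itgb1* that gives a muscle-specific tail had 0.02 and 0.08 estimated inclusion tags in control and *Qk cKO* against 573 and 693 skipping tags.

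Sequences that Qki is known to bind were searched in the spliced transcripts of the members. The motifs were ACTAAC and ACTAAT, on the sense strand, in the longest coding GENCODE transcript of each gene. Of 80 members, 37 (46.3%) held either motif, beside 44.5% of 18560 genes in the files. The members are long, with a median of 5721 nt, and among 2902 genes of the lengths of the middle members 68.4% held either motif. *Col2a1* held none. *Itgb8* held 3, all in the 3' untranslated region, shown in 30 bases each with the motif in capitals (GRCm38, minus strand).
Itgb8 chr12:119160996-119161025: tcactagtttgcACTAATtttaagactgac
Itgb8 chr12:119159742-119159771: tcaagggatagcACTAATattccttcaaat
Itgb8 chr12:119158210-119158239: aactggttgactACTAACttctcttttatg
*Col4a1*, which was not called, held 3 as well, also in the 3' untranslated region. The *Itgb8* sites lie beyond the end of the gene in RefSeq, at position 119162803 on this strand, and the exon length in the deposited tables, 5753 nt, is shorter than the GENCODE transcript of 8403 nt, so they may lie outside the part of *Itgb8* that was counted. A match of letters does not show binding, and introns were not searched.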

How the data were processed

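Poly-A RNA of 4 E14.5 cortices (2 control, 2 *Qk cKO*) was sequenced as 150 nt paired reads, from libraries whose kit does not mark strand. The authors used OLego for alignment, to mm10 together with a database of exon junctions, and Quantas for the quantification of genes and events. The deposited tags are estimated counts, rounded here to whole numbers, and the deposited RPKM values are the same tags scaled by exon length and by the total gene tags of the sample. The step from raw reads is not repeated here.

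The 18834 genes that had 1 tag or more in some sample were tested with edgeR 4.0.16 (R 4.3.3; TMM scaling, quasi-likelihood test, genotype only) and called at a p below 0.01 and a Benjamini-Hochberg FDR below 0.1 over all genes tested. Events with a coverage of at least 20 were tested with two-sided Fisher's exact tests on tags summed over embryos, adjusted within event type. This test leaves out the spread between embryos. Scripts were tested on simulated data. Sequences came from RefSeq and GENCODE release M21, and 58 of 80 members had a RefSeq promoter window.

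Members, lists and tests were chosen with earlier results of these data known. Named were all called genes and events, *Col2a1*, the 2 most abundant members of each role and list, the 4 largest log2 fold changes in each direction among members with a mean RPKM of at least 1, tested events with ΔI of at least 0.1 and the 4 with most coverage, 1 per gene. Alternatives were the edgeR exact test, DESeq2 1.42.0, other scalings and filters, the replicate number as a block, and leaving out each sample. The paper describes the embryos as independent littermates. P-values of edgeR measure the spread between these embryos, and those of Fisher's exact test do not.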

Additional observations from a re-analysis of the deposited data

How the results depend on the processing

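The count of members called, 2, was 1 with edgeR's filter on low counts, and ranged from 0 to 8 when a sample was left out. Members called higher were 0, 1 with the edgeR exact test (*Col17a1*), and 0 to 6 when a sample was left out. The 4 related genes called became 0 with the filter on low counts and ranged from 0 to 8 when a sample was left out. The 11 marker genes called became 3 with DESeq2, 2 with the filter on low counts and 5 with a mean RPKM of at least 1 in both groups, and ranged from 0 to 18 when a sample was left out. Over all genes, the 110 calls became 57 with the exact test, 81 with DESeq2, 11 with the filter on low counts and 192 with the block. Member events called were 0, and 1 on junction tags alone. The cause of these moves was not tested.

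The labels tie replicate numbers to no shared litter, batch or day, but in the data they went with sex, with *Xist* high in replicate 1 of both genotypes. The deviations of same-numbered samples correlated at 0.53 over 12958 genes, at -0.06 over the autosomal genes among them and at 0.01 over 6965 events. With the replicate block, 3 members (*Col9a2*, FDR = 0.0728, with *Col2a1* and *Itgb8*), 6 related genes, 11 markers and 0 events were called, and *Itgam* moved to a log2 fold change of 0.0215.

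Of the 48 members with a mean RPKM of at least 1, 25 changed sign when a sample was left out. Examples, with some less abundant members, had log2 fold changes from -0.20 to 0.66 for *Col13a1*, -0.37 to 0.43 for *Col23a1*, -0.39 to 0.11 for *Col1a1*, -0.24 to 0.22 for *Col1a2*, -0.0507 to 0.0021 for *Col11a1*, -1.87 to 0.11 for *Col5a3* (*Col1a1* and *Col5a3* were called lower without *Qk cKO* 2), -0.0518 to 0.0560 for *Col4a1* (-0.0019 with upper-quartile scaling), -0.14 to 0.0847 for *Col4a2*, -0.11 to 0.34 for *Col6a1*, -0.15 to 0.26 for *Col6a2*, -0.15 to 0.36 for *Itga11*, -0.17 to 0.0208 for *Itga3*, -0.0432 to 0.0791 for *Itga5*, -0.28 to 0.33 for *Itgam*, -0.49 to 0.20 for *Itgb2*, -0.0442 to 0.24 for *Lama4*, -0.0290 to 0.18 for *Lamc1* and -0.15 to 0.0978 for *Lamc3*. The same held for *Fyn* (-0.0823 to 0.0429), *Ppib* (-0.10 to 0.0412), *Rpsa* (-0.14 to 0.0250) and the ΔI of *Col18a1* (-0.0377 to 0.0336) and, under the minimum coverage, *Itgav* (-0.22 to 0.13), *Col6a3* (-0.20 to 0.29) and *Col25a1* (-0.0745 to 0.12). Averaged over embryos, the ΔI of *Itgav* was -0.0503 and that of *Col4a5* -0.0992. The median SE of members with a mean RPKM of at least 1 was 0.11 on the log2 scale, which limits what 2 embryos per group can show.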

Other observations

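Chains of surface epithelium were at the lower end of detection. *Lama3* and *Lamb3*, laminin chains of epithelial basement membranes, had mean RPKM values of 0.304 and 0.284, and *Itgb4*, a receptor subunit of hemidesmosomes, 0.226. *Col17a1*, a hemidesmosome collagen, had 6 and 10 tags in control and 47 and 27 in *Qk cKO* (log2 fold change 2.11 ± 0.58, edgeR FDR = 0.171), while *Itgb4* had 102 and 61 tags in control and 79 and 46 in *Qk cKO*. *Krt19* had the same direction as *Col17a1*, and the summed RPKM of the 9 surface epithelium markers was 7.14 and 4.81 in control and 5.08 and 8.14 in *Qk cKO*, without a split by genotype. *Col10a1*, the collagen of hypertrophic cartilage, had 0 tags in both controls and 1 and 2 in *Qk cKO*.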
